A study of Mus musculus with 4 samples.

Results

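Blood clotting and clot removal were followed through 9 genes of the cell surface and the vessel wall in mouse cortex after a stroke. They were F3, Thbd, Procr, Vwf, F2r, Plat, Plau, Plaur and Serpine2, chosen by name. Every array probe whose RefSeq accession mapped to one of these symbols was taken, which gave 10 probes of the 39429 on the array. F3 had 2 probes and each of the others had 1. All 10 were kept by the filter on dim probes, which left 30259 probes in all.

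The tissue was cortex from the injured side of the brain, taken 24 h after permanent closure of the left middle cerebral artery by electrocoagulation. The samples were 4 labelled Ndrg2KO, from mice lacking the N-myc downstream regulated gene Ndrg2, and 4 from wild-type (WT) mice. All mice were C57BL/6 and 8 weeks old, and both groups had the same occlusion, so no uninjured tissue entered the comparison. Each of 4 2-colour Agilent arrays carried 1 Ndrg2KO sample in Cy3 and the WT sample of the same replicate number in Cy5. The labels name no promoter, no deleted exon and no pooling, and do not say that each sample came from a separate animal. The p-values therefore cover the variation among these 4 pairs alone, and that variation may be technical. Dyes were never swapped, so for any single probe a dye effect and the genotype cannot be told apart.

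Clotting in a vessel begins when tissue factor, the product of F3, meets factor VII of the plasma, and it proceeds through the protease thrombin. Astrocytes are the main source of tissue factor in the brain. Thrombomodulin (Thbd) and the endothelial protein C receptor (Procr) turn thrombin towards activation of protein C, which slows clotting, while von Willebrand factor (Vwf) tethers platelets to the damaged wall. Clots are dissolved by plasmin, which tissue-type (Plat) and urokinase-type (Plau) plasminogen activators cut from plasminogen. The receptor Plaur holds urokinase on the cell surface, and protease nexin-1 (Serpine2) inhibits thrombin and both activators.

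RefSeq promoter windows, 250 bases before to 50 bases after a gene's start in the build GRCm38.p6, were at hand for 5 of the 9 genes: F3, Procr, F2r, Plaur and Serpine2. The AP-1 motif TGANTCA, which reads alike on both strands, lay in 4 of these 5 windows and in 7.81% of all 32851 windows of that length. It is shown because F3, Procr, F2r and Plaur share it, and its part in their ratios was not tested. Serpine2, whose window holds no copy, had ratios of 0.08 to 0.26, above 0 on all 4 arrays as those of F3 were. The lowest ratios of Procr and F2r were -0.56 and -0.31, on array 1, and that of Plaur was -0.93, on array 2. The 250 bases before the start are given 5′ to 3′ on the gene's strand, with each TGANTCA in capitals.
F3, chr3:121723287-121723536, plus strand: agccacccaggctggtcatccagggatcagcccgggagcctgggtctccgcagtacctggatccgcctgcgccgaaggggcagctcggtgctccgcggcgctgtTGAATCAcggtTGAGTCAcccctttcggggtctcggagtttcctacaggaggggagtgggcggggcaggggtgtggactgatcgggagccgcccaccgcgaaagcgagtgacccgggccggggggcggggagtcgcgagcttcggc
Procr, chr2:155750967-155751216, plus strand: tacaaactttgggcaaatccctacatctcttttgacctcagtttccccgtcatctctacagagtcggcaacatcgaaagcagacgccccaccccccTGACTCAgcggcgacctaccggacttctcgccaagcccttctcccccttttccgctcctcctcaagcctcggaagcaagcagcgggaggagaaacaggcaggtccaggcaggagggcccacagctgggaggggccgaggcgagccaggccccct
F2r, chr13:95618467-95618716, minus strand: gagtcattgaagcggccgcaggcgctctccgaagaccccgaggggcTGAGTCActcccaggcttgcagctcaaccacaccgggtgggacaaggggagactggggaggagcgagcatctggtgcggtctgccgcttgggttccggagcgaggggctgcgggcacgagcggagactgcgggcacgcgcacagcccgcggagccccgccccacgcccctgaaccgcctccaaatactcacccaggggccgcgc
Plaur, chr7:24462233-24462482, plus strand: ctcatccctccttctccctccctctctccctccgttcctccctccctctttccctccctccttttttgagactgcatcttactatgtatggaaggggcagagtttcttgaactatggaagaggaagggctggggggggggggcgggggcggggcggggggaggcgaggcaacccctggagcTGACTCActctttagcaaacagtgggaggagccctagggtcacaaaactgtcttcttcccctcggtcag

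F3 held 2 copies of the AP-1 motif, which began 146 and 135 bases before its start, with other bases at the middle position. The copy of Plaur began 69 bases before the start, that of Procr 154 and that of F2r 204. The Sp1 motif GGGCGG, searched on both strands, lay in 4 of the 5 windows (F3, F2r, Plaur and Serpine2) and in 35.7% of all windows, and Serpine2 held 6 copies. The Egr1 motif GCGNGGGCG lay in the windows of Plaur and Serpine2, overlapping a GGGCGG in each, and in 5.55% of all windows. The NF-kappaB motif, GGG and CC with any 5 bases between them, lay in 4 of the 5, all but F2r, and in 50.8% of all windows. The core ACGTG of hypoxia elements lay in none of the 5 and in 19.6% of all windows. These matches are a description of letters, and no factor's binding was measured.

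On each array 73.6 to 74.9% of the 43020 spots outside the controls were well above background in the Ndrg2KO channel and 76.7 to 79.0% in the WT channel, and none was saturated. The number of arrays, 4, limits the precision. Log ratios across probes correlated at 0.73 between arrays 1 and 2 and at 0.63 between arrays 3 and 4. The other pairs correlated at 0.41 to 0.47. Values for arrays 3 and 4 alone are given for the 10 probes and for the other genes that passed. That alternative was chosen after the values were seen, and arrays 1 and 2 were not fitted alone. A fit of 2 arrays makes fewer calls: over all probes 779 higher and 1039 lower, against 2811 and 3527 with all 4. All 10 neuron markers and all 10 astrocyte markers listed were well above background in all 8 samples. The probe of Ndrg2 itself was well above background in all 4 Ndrg2KO samples. Its log2 ratio was -0.18 ± 0.05 (SD over 4 arrays; limma, adjusted p = 0.0244) and lost that call with replicate 1, 2 or 3 left out (-0.17 to -0.18). From the scanner's processed signals it stood at -0.04, with each array only centred on its median at -0.81 (adjusted p = 4.9e-06), and on arrays 3 and 4 alone at -0.15 (adjusted p = 0.149). Which part of Ndrg2 is deleted is not stated, so this probe cannot check the genotype, and the samples are called Ndrg2KO-labelled.

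Among the 9 genes, F3 and Serpine2 were higher and Vwf was lower in the Ndrg2KO-labelled cortex, each by about the same small amount. F3 rose by 0.20 and 0.27 on the log2 scale by its 2 probes, Serpine2 by 0.18, and Vwf fell by 0.23. The other 6 genes, Thbd, Procr, F2r, Plat, Plau and Plaur, did not pass the test. In all, 3 of 10 probes passed as higher, against 9.29% of all kept probes, and 1 of 10 as lower, against 11.7%. In either direction 4 of 10 passed, against 20.9%. Of the 3 higher probes 2 are of F3. By the brightest probe of each gene, 2 of 9 genes passed as higher and 1 as lower, against 8.89% and 12.7% of all named genes. The test was limma's moderated test of each probe's log2 ratio of Ndrg2KO over WT against 0, adjusted over all 30259 kept probes by Benjamini-Hochberg, with a threshold of 0.05. None of the 4 calls held in every fit that left out 1 array. With arrays 3 and 4 alone none of the 10 passed, although 4 had an unadjusted p under 0.05 as higher. With each array only centred on its median, in place of a loess curve along intensity, the split over all probes moved to 7883 higher and 15614 lower, against 2811 and 3527. Under that setting the median of all kept probes was -0.16, against -0.01 as reported, but probes did not move alike: among the 10, the change ran from -0.37 for F3 probe A_55_P1971889 to 0.15 for Plau. With ratios of the scanner's processed signals only F3 probe A_65_P08971 kept its call among the 4 (adjusted p = 0.0466), the other 3 having adjusted p of 0.0503 to 0.0847.

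**Figure D1:**
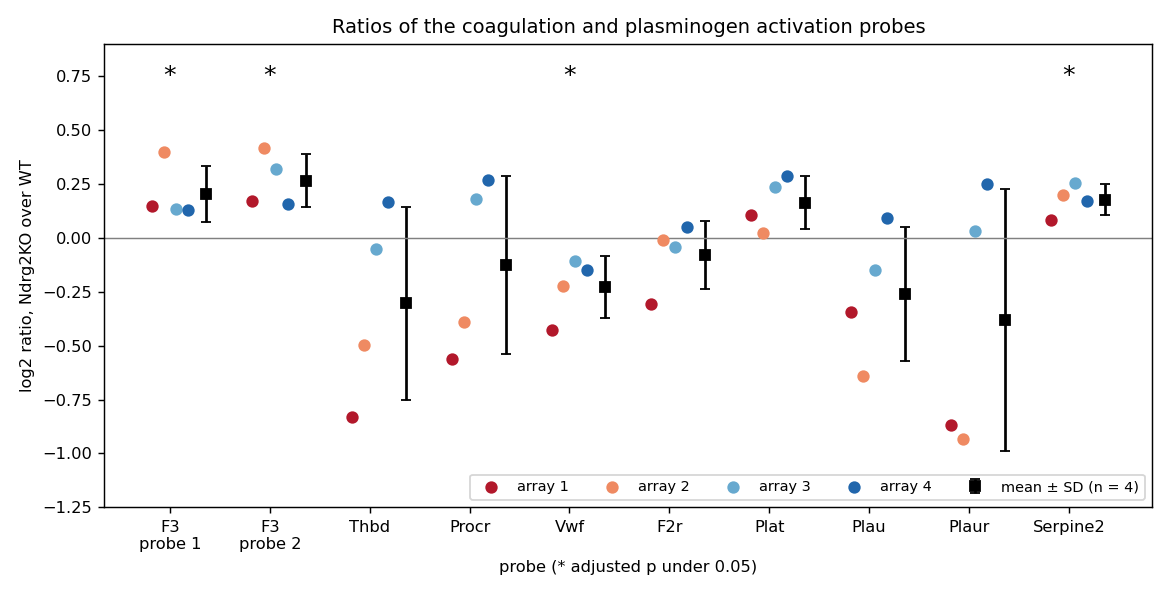
Log2 ratio of Ndrg2KO over WT (vertical axis) for each of the 10 probes, 1 point per array, with the mean ± SD over 4 arrays as black squares; F3 probe 1 is A_55_P1971889 and probe 2 is A_65_P08971. Both F3 probes and Serpine2 lie above 0 and Vwf below 0 on all 4 arrays, whereas Plaur runs from -0.93 on array 2 to 0.25 on array 4.

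F3 encodes tissue factor, the cell-surface receptor of factor VII that starts clotting. Its probe A_55_P1971889 had log2 intensities of 12.88, 13.23, 13.05 and 12.98 in Ndrg2KO samples 1 to 4, against 12.74, 12.83, 12.91 and 12.85 in WT samples 1 to 4. Each Ndrg2KO sample was above the WT sample on its own array, by 0.15, 0.40, 0.14 and 0.13, but the groups overlapped. The mean ratio was 0.20 ± 0.13 (SD, n = 4; limma, adjusted p = 0.0430), or 1.15-fold.

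The second F3 probe, A_65_P08971, had log2 intensities of 9.35, 9.64, 9.43 and 9.32 in the Ndrg2KO samples, against 9.18, 9.22, 9.11 and 9.16 in the WT samples. Here every Ndrg2KO sample was above every WT sample, as for 9.68% of all kept probes. Among the 10 probes 2 were separated in this way, this one and that of Serpine2, and none had every Ndrg2KO sample below every WT sample, against 9.84% of all kept probes. The ratios were 0.17, 0.42, 0.32 and 0.16, with a mean of 0.27 ± 0.12 (limma, adjusted p = 0.0178), or 1.2-fold. Both probes were highest on array 2, where the ratio exceeded that of 98.1% and 98.4% of all kept probes. The call of A_55_P1971889 was lost with any 1 replicate left out (adjusted p = 0.0701 to 0.119) and that of A_65_P08971 with replicate 2 (0.22, adjusted p = 0.0649) or 3 (0.25, adjusted p = 0.0622) left out. With median centring A_55_P1971889 stood at -0.17 (adjusted p = 0.0422) and A_65_P08971 at 0.08 (adjusted p = 0.264). Arrays 3 and 4 alone gave 0.13 and 0.24, neither past the threshold.

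Thbd encodes thrombomodulin, the endothelial receptor that turns thrombin into an activator of protein C. Its log2 intensities were 10.87, 11.29, 11.89 and 12.22 in the Ndrg2KO samples, against 11.70, 11.78, 11.95 and 12.05 in the WT samples. Ndrg2KO samples 1 and 2 lay below every WT sample, and samples 3 and 4 lay within or above the WT range. The ratios were accordingly -0.83, -0.50, -0.05 and 0.17, and on array 1 only 0.33% of kept probes had a lower ratio. The mean, -0.30 ± 0.45, did not pass (limma, adjusted p = 0.178; 95% interval -0.65 to 0.04).

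Procr encodes the receptor that presents protein C to the thrombin and thrombomodulin complex. Its log2 intensities were 8.88, 9.20, 9.88 and 9.89 in the Ndrg2KO samples, against 9.44, 9.59, 9.70 and 9.62 in the WT samples. Samples 1 and 2 were again below, and samples 3 and 4 above, all the WT samples, so that the signs of the ratios split evenly: -0.56, -0.39, 0.18 and 0.27. The mean was -0.13 ± 0.41 and did not pass (limma, adjusted p = 0.540; 95% interval -0.44 to 0.19). Arrays 3 and 4 alone gave 0.056 for Thbd and 0.23 for Procr, neither past the threshold. With median centring both probes passed as lower, at -0.62 and -0.33.

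Vwf encodes von Willebrand factor, made by endothelial cells and megakaryocytes, which binds platelets to exposed collagen. Its log2 intensities were 12.13, 12.48, 12.78 and 12.69 in the Ndrg2KO samples, against 12.56, 12.70, 12.89 and 12.84 in the WT samples. The groups overlapped, yet each Ndrg2KO sample was below the WT sample of its array, with ratios of -0.43, -0.22, -0.11 and -0.15. The mean was -0.23 ± 0.14 (limma, adjusted p = 0.0351), or 1.17-fold lower. The call was lost with any 1 replicate left out (adjusted p = 0.0525 to 0.103), with arrays 3 and 4 alone (-0.13, adjusted p = 0.176) and with samples unpaired, as 2 groups of 4 (adjusted p = 0.283). With median centring the value was larger, at -0.59 (adjusted p = 6.19e-05).

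F2r encodes the thrombin receptor PAR1, which thrombin cleaves on endothelial cells, astrocytes and neurons. Its log2 intensities were 9.66, 9.95, 10.05 and 10.19 in the Ndrg2KO samples, against 9.97, 9.96, 10.09 and 10.15 in the WT samples. Ndrg2KO sample 1 was the lowest of the 8 and Ndrg2KO sample 4 the highest, and the groups overlapped, with ratios of -0.31, -0.01, -0.04 and 0.05. The mean of -0.08 ± 0.16 did not pass (limma, adjusted p = 0.408; 95% interval -0.23 to 0.07), though it passed as lower with median centring, at -0.32. The value was 0.0042 on arrays 3 and 4 alone.

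Plat encodes tissue-type plasminogen activator, which neurons, microglia and endothelial cells of the brain release. Its log2 intensities were 10.66, 10.81, 11.08 and 11.08 in the Ndrg2KO samples, against 10.55, 10.79, 10.84 and 10.79 in the WT samples. Each Ndrg2KO sample was above its partner, by 0.11, 0.02, 0.24 and 0.29, but the groups overlapped. The mean of 0.16 ± 0.12 did not pass (limma, adjusted p = 0.0724; 95% interval 0.04 to 0.29). It passed with ratios of the scanner's processed signals (0.25, adjusted p = 0.0460) and turned to -0.12 with median centring. It was 0.26 on arrays 3 and 4 alone (adjusted p = 0.0532).

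Plau encodes urokinase and lies on chromosome 14, which also carries Ndrg2. The probe was well above background in all 8 samples. The log2 intensities were 7.29, 7.08, 7.25 and 7.61 in the Ndrg2KO samples, against 7.63, 7.72, 7.39 and 7.52 in the WT samples. Ratios were -0.34, -0.64, -0.15 and 0.09, so that 3 arrays were lower and 1 higher. The mean of -0.26 ± 0.31 did not pass (limma, adjusted p = 0.119; 95% interval -0.51 to -0.01). Without replicate 4 it passed, at -0.38 (adjusted p = 0.0417), without replicate 2 it stood at -0.13, and with arrays 3 and 4 alone at -0.029. The scanner's processed signals gave -0.56 (adjusted p = 0.137).

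Plaur encodes the urokinase receptor, which leukocytes carry and which injured tissue induces. Its log2 intensities were 9.75, 9.82, 11.03 and 11.33 in the Ndrg2KO samples, against 10.62, 10.75, 10.995 and 11.08 in the WT samples. Ndrg2KO samples 1 and 2 were far below every WT sample, and sample 4 was above them all. The Ndrg2KO samples thus spanned 1.58 and the WT samples 0.46 on the log2 scale. The ratios were -0.87, -0.93, 0.03 and 0.25, and fewer than 0.5% of kept probes were lower on array 1 or on array 2 (0.30% and 0.46%). The mean of -0.38 ± 0.61 was the largest in size among the 10 probes as reported, but did not pass (limma, adjusted p = 0.205; 95% interval -0.84 to 0.08). Without replicate 1 or 2 it stood at -0.22 or -0.19, smaller in size than F3 probe A_65_P08971 (0.30 and 0.22), and from the scanner's processed signals at -0.43, against -0.56 for Plau. Arrays 3 and 4 alone gave 0.14 (adjusted p = 0.241), and median centring gave -0.66 (adjusted p = 0.00743).

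Serpine2 encodes protease nexin-1, a serpin of glia and neurons that blocks thrombin, urokinase and tissue-type activator. Its log2 intensities were 11.42, 11.42, 11.49 and 11.49 in the Ndrg2KO samples, against 11.34, 11.22, 11.23 and 11.32 in the WT samples. Every Ndrg2KO sample was above every WT sample, and this was the only one of the 10 probes whose Ndrg2KO samples were the closer together (SD 0.04, against 0.06 in WT). The ratios were 0.08, 0.20, 0.26 and 0.17, with a mean of 0.18 ± 0.07 (limma, adjusted p = 0.0320), or 1.13-fold. The call was lost with any 1 replicate left out (0.15 to 0.21, adjusted p = 0.0511 to 0.105), with median centring the value was -0.13 (adjusted p = 0.0730), and arrays 3 and 4 alone gave 0.21 (adjusted p = 0.0761).

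**Figure D2:**
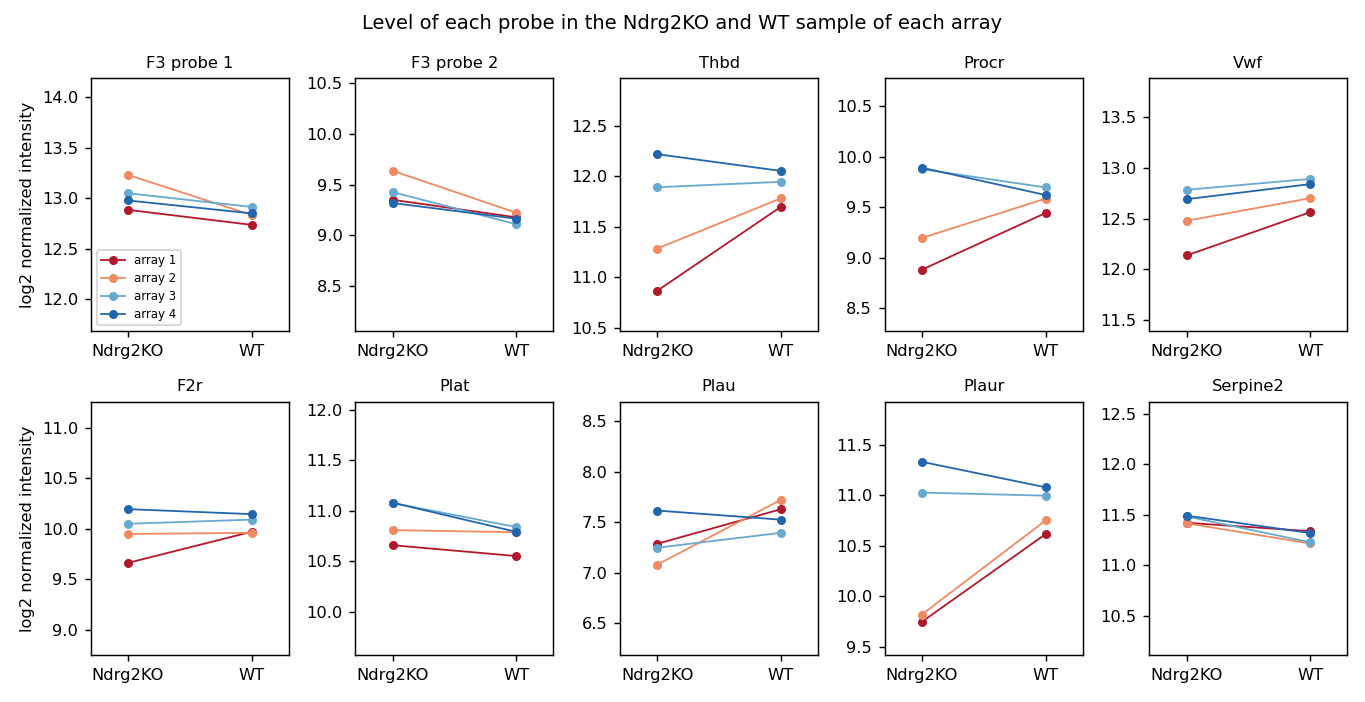
Log2 normalized intensity (vertical axis, each panel spanning the same width) of the 10 probes in the Ndrg2KO sample (left) and the WT sample (right) of each array, joined by a line. The Ndrg2KO points of Plaur, Thbd and Procr separate into low samples 1 and 2 and high samples 3 and 4, while their WT points lie closer together.

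All of the 9 genes but F2r thus showed 1 of 2 kinds of ratio. F2r, at -0.31, -0.01, -0.04 and 0.05, fell in neither. F3, Plat, Serpine2 and Vwf kept 1 sign on all 4 arrays (4 probes higher, 2 of them of F3, against 19.8% of all kept probes, and 1 lower, against 23.5%). For Thbd, Procr, Plau and Plaur the ratio was below -0.3 on both arrays 1 and 2 and above -0.3 on both arrays 3 and 4, as it was for 2.55% of all kept probes. The value -0.3 was chosen after the ratios were seen, so this is a description with no test. Over the 10 probes the median ratio was -0.33, -0.12, 0.08 and 0.16 on arrays 1 to 4, while the median over all kept probes was -0.01 on each. The SD of the Ndrg2KO samples exceeded that of the WT samples for 9 of 10 probes, against 61.7% of all kept probes. All Ndrg2KO samples were in Cy3, so a dye effect on this spread and the genotype cannot be told apart. The median SD of the 10 probes was 0.22 in Ndrg2KO and 0.12 in WT samples, against 0.09 and 0.08 over all kept probes.

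The ratios of Plaur, chosen for its mean over all 4 arrays, were matched against those of 16050 other named genes by the root mean square difference over the 4 arrays. The closest were the cytokine gene Il1b (a difference of 0.09), the transcriptional repressor gene Tgif1 (0.09), Tnfaip2 (0.11), the membrane protein gene Emp1 (0.12) and the angiopoietin gene Angpt2 (0.13). Il1b had ratios of -0.71, -1.02, 0.05 and 0.29. In all, 36 genes lay within 0.2 of Plaur by this measure, which rests on only 4 arrays.

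Of 54 other genes of clotting and plasminogen activation, 45 were measured, each by its brightest kept probe. In the Ndrg2KO-labelled samples 2 were higher, 7 were lower and 36 did not pass, against 8.89% higher and 12.7% lower of all 17014 named genes tested. The median ratio of the 45 was -0.04, against -0.01 over all kept probes. With ratios of the scanner's processed signals 2 were higher (Gas6 and Plgrkt) and 2 lower (Anxa5 and Eno1), and with median centring 17 and 22. On arrays 3 and 4 alone none was higher (limma; 5 at an unadjusted p under 0.05) and 3 were lower, F9, Anxa5 and Eno1.

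Among clotting factors and their modifying enzymes, 1 of 15 measured genes passed: F9, encoding factor IX, fell by 0.33 ± 0.17 (limma, adjusted p = 0.0156), with ratios of -0.21, -0.20, -0.56 and -0.35. It passed with each replicate left out (-0.37 to -0.25) and on arrays 3 and 4 alone (-0.45), but not from the scanner's processed signals (-0.37, adjusted p = 0.0596). No factor passed as higher, and 1, F10, had an unadjusted p under 0.05 as higher (0.22; limma, adjusted p = 0.0751). Its other kept probe went the other way, at -0.33 (limma, adjusted p = 0.0646). Of 10 genes listed as anticoagulant, 3 fell and 1 rose. The 1 that rose, Gas6, is related to protein S but is not itself an established anticoagulant. Anxa5, whose product annexin A5 covers the phosphatidylserine on which clotting factors assemble, fell by 0.53 ± 0.15 (adjusted p = 0.00327), with ratios of -0.68, -0.59, -0.33 and -0.52. Its call held with each replicate left out, with arrays 3 and 4 alone (-0.42) and with ratios of the scanner's processed signals (-0.49), and median centring gave -0.93.

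Tfpi, encoding the inhibitor of tissue factor and factor VII, fell by 0.24 ± 0.11 (adjusted p = 0.0198). Its 2 other probes stood at -0.10 and -0.16 and did not pass, and leaving out replicate 1, 2 or 3 ended the call (-0.26 to -0.19). Median centring gave -0.40 and arrays 3 and 4 alone -0.19. Serpind1, encoding heparin cofactor II, a thrombin inhibitor, fell by 0.35 ± 0.27 (adjusted p = 0.0381), a call lost without replicate 1, 2 or 4. It stood at -0.12 on arrays 3 and 4 alone (adjusted p = 0.237) and at -0.56 with median centring. Gas6, a vitamin K-dependent ligand related to protein S, rose by 0.26 ± 0.09 (adjusted p = 0.0137) and lost that call without replicate 1 (0.23) or 2 (0.23). With median centring Gas6 passed as lower, at -0.19 (limma, adjusted p = 0.0136). Arrays 3 and 4 alone gave 0.18 (adjusted p = 0.0984). Apart from F2r, the only protease-activated receptor gene above the filter was F2rl2, encoding PAR3, at -0.08 ± 0.17 (adjusted p = 0.436).

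Of 11 genes linked to plasminogen, Plgrkt, which encodes a plasminogen receptor, rose by 0.20 ± 0.02 (limma, adjusted p = 0.0144), with ratios of 0.18, 0.22, 0.21 and 0.21. Its call was lost without replicate 2 (adjusted p = 0.0568) and lay at the threshold without replicate 3 (adjusted p = 0.05), and median centring gave -0.09. On arrays 3 and 4 alone it stood at 0.21 (adjusted p = 0.0730). Eno1, encoding the glycolytic enzyme enolase 1, which can also bind plasminogen on cell surfaces, fell by 0.45 ± 0.05 (adjusted p = 0.00180) and passed with each replicate left out (-0.46 to -0.43). Its size depended on the setting: it was -1.13 with median centring, -0.33 from the scanner's processed signals and -0.41 on arrays 3 and 4 alone. The other 9 did not pass.

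Of 8 inhibitors, 2 fell. Serpinf2, encoding the main plasmin inhibitor alpha2-antiplasmin, fell by 0.31 ± 0.21 (limma, adjusted p = 0.0330), a call lost without replicate 1, 2 or 3. It stood at -0.14 on arrays 3 and 4 alone (adjusted p = 0.174). Serpinb2, encoding plasminogen activator inhibitor 2, fell by 0.23 ± 0.13 (adjusted p = 0.0293), but it was well above background in only 1 of 4 Ndrg2KO samples and 4 of 4 WT samples. It lost the call without replicate 1, 2 or 4 (-0.21 to -0.20), and with median centring it passed as higher, at 0.28 (limma, adjusted p = 0.0025). The scanner's processed signals gave -1.13 (adjusted p = 0.0527) and arrays 3 and 4 alone -0.16.

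**Figure D3:**
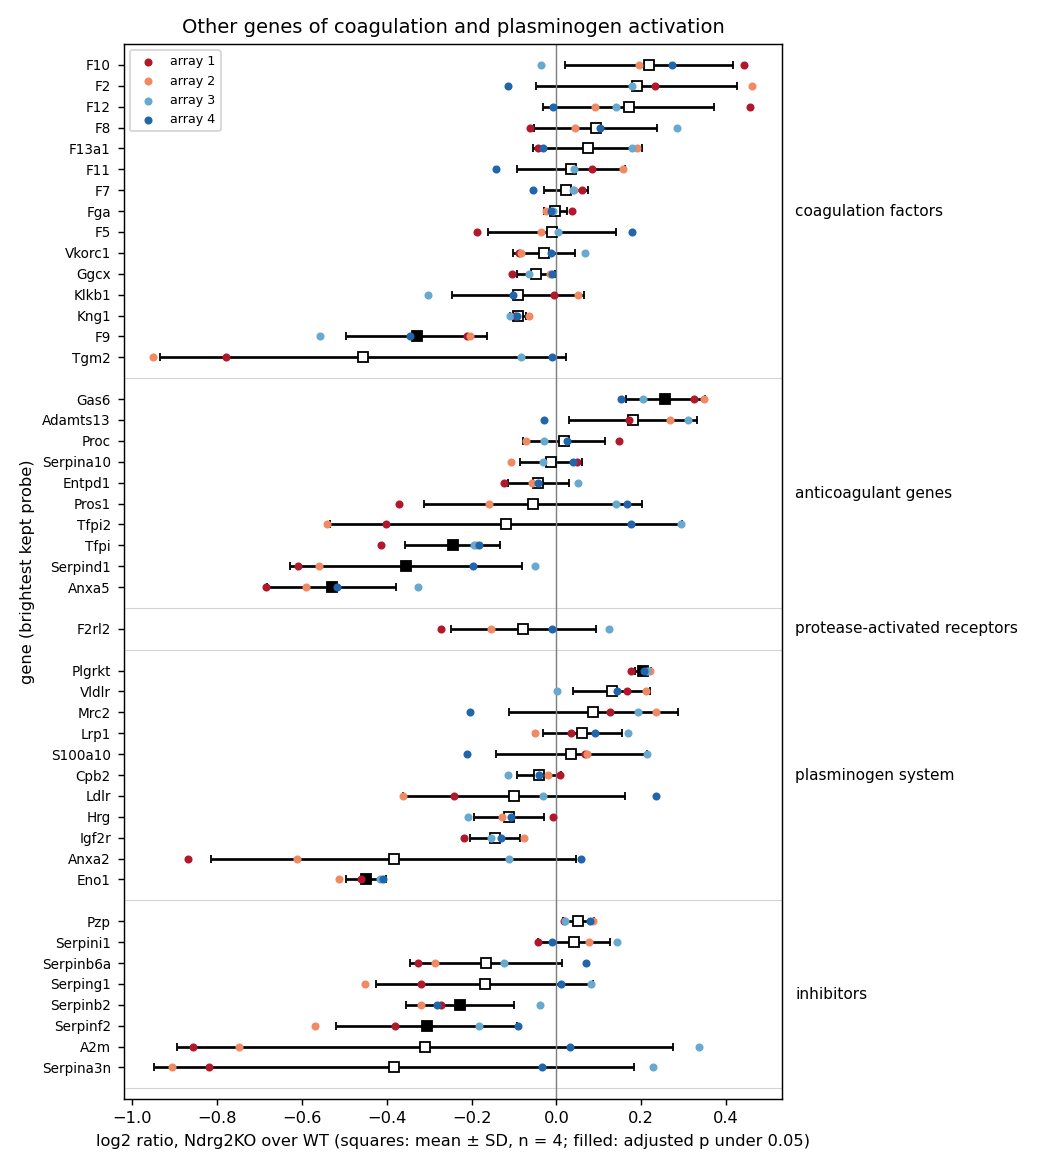
Log2 ratio of Ndrg2KO over WT (horizontal axis) for the 45 measured genes of clotting and plasminogen activation outside the 9, in 5 groups, with 1 point per array and squares for the mean ± SD over 4 arrays, filled where the adjusted p was under 0.05. Anxa5 and Eno1 lie below 0 on every array, and Gas6 and Plgrkt above 0 on every array.

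Markers of several cell types had lower medians on arrays 1 and 2 than on arrays 3 and 4, as Thbd, Procr, Plau and Plaur had, and in whole tissue fewer cells of a type and less RNA per cell cannot be told apart. Each marker was read by its brightest kept probe. Over all named genes 8.89% were called higher and 12.7% lower, so 1 or 2 lower calls in a list of about 10 are near that share. The 8 measured of 9 monocyte and macrophage markers had medians of -0.46, -0.73, -0.10 and 0.36 on arrays 1 to 4, with 2 lower, Adgre1 and Ms4a4c. Their summed linear intensity ran from 23854 to 31717 in the Ndrg2KO samples and from 34923 to 38919 in the WT samples, but Ms4a4c alone made up 67.5 to 86.1% and 78.8 to 81.8% of these sums. Without it the sums ran from 3311 to 10321 in the Ndrg2KO samples and from 6365 to 8238 in the WT samples, and the groups overlapped. The 2 called markers did not share the split of the medians. Adgre1 had ratios of -0.49, -0.18, -0.45 and -0.45, and Ms4a4c of -0.39, -0.56, -0.57 and -0.43.

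All 14 endothelial markers were measured, with medians of -0.27, -0.18, 0.08 and 0.05, and 1 rose, 1 fell and 12 did not pass. Their sum ran from 55143 to 77024 in the Ndrg2KO samples and from 60573 to 69216 in the WT samples. The 8 measured of 10 neutrophil markers had medians of -0.22, -0.30, -0.15 and 0.05, with 2 lower, Csf3r and Elane. Their sums were 45394 to 54111 in Ndrg2KO and 57556 to 66369 in WT samples, and without Csf3r, the brightest, 3637 to 10766 and 6225 to 10116, so that the groups overlapped. Csf3r had ratios of -0.11, -0.31, -0.36 and -0.21 and Elane of -0.17, -0.30, -0.25 and -0.18, so neither was lower on arrays 1 and 2 alone.

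For platelets, which bind Vwf, 11 of 13 markers were measured, with medians of -0.05, -0.03, -0.02 and 0.10. Of these Itga2b and Gp5 rose, by 0.15 and 0.22, and none fell (limma; 2 at an unadjusted p under 0.05). Pf4, Ppbp and Selp, chosen after their values were seen, had their lowest ratios on array 1 (-0.72, -0.47 and -0.49) and stood at 0.15, 0.23 and 0.21 on array 4. Ppbp was well above background in only 2 of 4 Ndrg2KO samples. Itga2b, Gp1bb and Clec1b were also lowest on array 1, at 0.08, -0.05 and -0.07. Gp5, Treml1 and Tubb1 were instead highest on array 1 (0.34, 0.04 and 0.12), Itgb3 was lowest on array 4 (-0.31) and Gp9 on array 2 (-0.05). The platelet sums were 3565 to 5409 in Ndrg2KO and 4441 to 5564 in WT samples, and the probes of Gp1ba and Gp6 did not pass the filter on dim probes. The 5 measured of 8 erythrocyte markers had medians of -0.29, -0.63, -0.05 and 0.19, and the 10 oligodendrocyte lineage markers -0.05, -0.18, 0.17 and 0.26, with 2 higher and 1 lower. The part of these cell types in the ratios of the 9 genes was not tested.

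For astrocytes, a source of F3 and Serpine2, all 10 markers were measured, with medians of -0.22, -0.19, -0.06 and -0.23 and with 3 lower, none higher (limma; 1 at an unadjusted p under 0.05) and 7 that did not pass. F3 and Serpine2 were higher on all 4 of these arrays. The astrocyte sum ran from 173855 to 199488 in the Ndrg2KO samples and from 220891 to 235524 in the WT samples, and without Aldoc, the brightest, from 83684 to 99090 and from 94182 to 100848, so that the groups overlapped. Of the other lists, 3 of 10 microglia markers, 1 of 10 pericyte and smooth muscle markers, 2 of 10 neuron markers and 3 of 9 meningeal and fibroblast markers fell. By the brightest probes none of these rose (limma, 0 to 1 per list at an unadjusted p under 0.05). The microglia sum ran from 100017 to 111183 in the Ndrg2KO samples and from 114025 to 126090 in the WT samples. Without Siglech, the brightest, it ran from 57748 to 61242 and from 64754 to 66355, so that the groups did not overlap. The neuron and the pericyte and smooth muscle sums overlapped, as did the meningeal and fibroblast sums without Ptgds. The part of microglia in the ratios of the 9 genes was not tested. Other probes of uncalled markers did pass in limma. Gfap fell by 0.62 (adjusted p = 0.00704), while Rbfox3 rose by 0.35 (adjusted p = 0.00605) and the platelet marker Clec1b by 0.15 (adjusted p = 0.0477). For the called markers Ly6c1, Cx3cr1, Siglech, Adgre1, Ms4a4c and Mbp, the other probes did not pass.

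**Figure D4:**
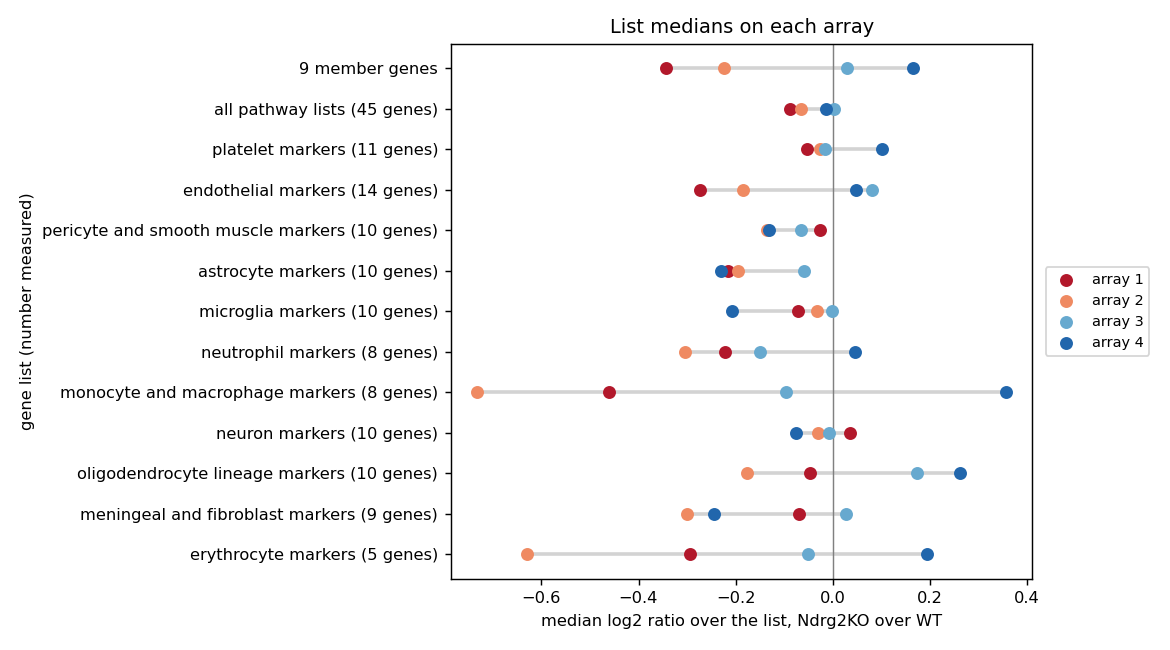
Median log2 ratio of Ndrg2KO over WT (horizontal axis) for the 9 genes, each by its brightest probe, for the 45 other genes of the pathway and for 11 lists of cell type markers, with 1 point per array. The 9 genes, the 45 pathway genes and the endothelial, monocyte and macrophage, neutrophil, platelet, oligodendrocyte lineage and erythrocyte markers have their points for arrays 1 and 2 left of those for arrays 3 and 4, by little for the pathway genes and the platelet markers.

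**Figure D5:**
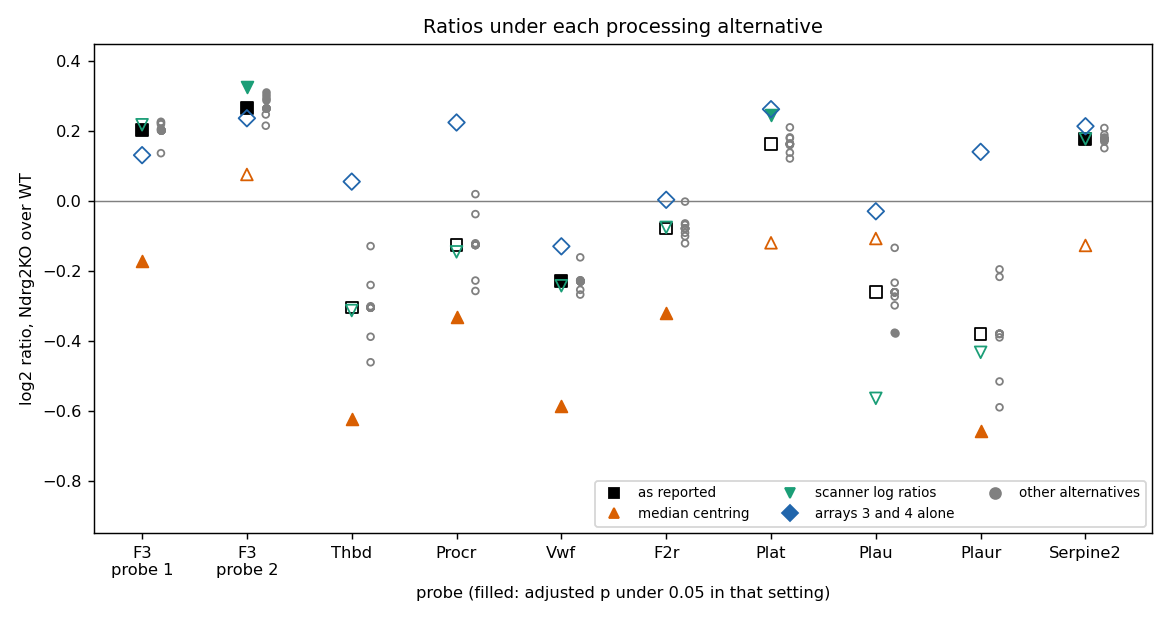
Log2 ratio of Ndrg2KO over WT (vertical axis) for each of the 10 probes as reported and under each processing alternative, filled where the adjusted p was under 0.05. Median centring, which moved the 10 probes by -0.37 to 0.15, gives values below those reported for every probe but Plau, and arrays 3 and 4 alone give values above 0 for Thbd, Procr and Plaur.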

How the data were processed

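RNA of 4 Ndrg2KO and 4 WT cortex samples was measured on 4 2-colour arrays of 1 slide. The median spot and background intensities, linear, and the processed intensities came from Agilent Feature Extraction 11.0.1.1, per the file headers, while the submitters' processing notes name 10.7.3.1. The log10 ratio, Cy5 over Cy3, and the flags (other values, 0 or 1) are also as deposited, per the file headers. In the series matrix the deposited values, on a log2 scale, equalled log2 of processed Cy5 over Cy3 within 0.001 for all 39030 single-spot probes, with column medians of -0.05, -0.06, -0.04 and -0.03. Its direction is therefore opposite to the one used here.

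Background was corrected with normexp (offset 50), ratios were normalized by loess within each array (control spots at weight 0), and levels by Aquantile, in limma 3.58.1 (R 4.3.3). Spots marked as outliers (139 to 186 per array) were left out, spots of 1 probe averaged, and different probes kept separate. A probe was kept when well above background on at least 3 of 4 arrays in either channel. Accessions were named through RefSeq genes of GRCm38.p6 (69.6% of probes). The array, which pairs the samples, was the block. Named genes were all 9 members, Ndrg2, the pathway genes that passed and the genes most like the member probe with the largest mean. F10 was named after its values were seen. In the pathway lists, 1 gene is not reported here and is in none of the counts. The members and all gene lists were chosen with earlier results of these data known. On simulated data with 30259 probes, 38 of 50 probes changed by 1.5-fold and 11 of 50 changed by 1.2-fold were recovered, with 4 false calls. The simulation changed far fewer probes than the 6338 called in the data. Its noise was independent between arrays, and it held no dye effect, so these rates cannot be carried over to the calls made here.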

Additional observations from a re-analysis of the deposited data

Results flagged for a closer look

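For F3, the ratio of probe A_55_P1971889 on array 2 stood apart from the other 3 arrays: it was 0.40, against 0.15, 0.14 and 0.13. The gap to its nearest neighbour was 0.92 of the distance between lowest and highest, more than Dixon's test allows for 4 values at its 95% level. Chance alone marks about 1 in 20 sets of 4 values, and ratios and both sets of levels were examined for all 10 probes. The other F3 probe was also highest on array 2, at 0.42, but next to 0.32 on array 3.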

How the results depend on the processing

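Over 15 alternatives, 149 values of the 10 probes were recomputed: 108 kept their direction and side of the threshold, 27 lost a call, 6 gained one and 8 changed sign. The signs that changed were those of F3 (A_55_P1971889, -0.17), Plat (-0.12) and Serpine2 (-0.13) with median centring, of Thbd (0.056), Procr (0.23), F2r (0.0042) and Plaur (0.14) with arrays 3 and 4 alone, an alternative chosen after the values were seen, and of Procr without replicate 1 (0.020; -0.26 to 0.020 over the 4 fits that leave out a replicate). Leaving out 1 replicate gave 0 to 1 member probes higher and 0 to 1 lower, 0 to 4 pathway genes higher and 3 to 8 lower, and 1064 to 1651 probes higher and 1356 to 2164 lower in all, with 3 to 4 member probes higher and 1 to 4 lower, and 2 to 6 pathway genes higher, at an unadjusted p under 0.05 (limma). The median of the member probes then ran from -0.19 to 0.01, against -0.10 with all arrays. Arrays 3 and 4 alone gave 0 member probes in either direction (limma; 4 higher and 0 lower at an unadjusted p under 0.05), a member median of 0.14, 0 pathway genes higher and 3 lower (5 and 7 at an unadjusted p under 0.05), and 779 and 1039 probes. Median centring gave 0 member probes higher (0 at an unadjusted p under 0.05) and 6 lower, 17 and 22 pathway genes, and 7883 and 15614 probes. With no replicate block, the samples being taken as 2 unpaired groups, 2 member probes were higher and 0 lower, 1645 probes higher and 1748 lower. Normexp with no offset gave 1 member probe higher and 0 lower and 2104 probes lower, and ratios of the scanner's processed signals gave 0 member probes lower, 2 pathway genes lower and 2028 probes lower; in these 3 settings 1, 1 and 2 member probes were lower at an unadjusted p under 0.05. The causes were not tested. The other alternatives (no background correction, no filter or a stricter one, outlier spots kept, 1 probe per gene, an intensity trend) moved none of these counts by over 1.5 times.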
